A study of Mus musculus with 6 samples.

Results

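The control (con) libraries of BaF3 cells were described, as the baseline transcriptome of this line: 2 of the 6 libraries of the series, chosen by their label alone. BaF3 is an established mouse haematopoietic line that dies without interleukin-3 and is widely used to ask whether an oncogene can replace that cytokine. The labels call it a pro-B line and also chronic lymphocytic leukaemia. All 6 libraries came from cells grown with 10% serum and 2 ng/mL mouse interleukin-3, nucleofected with a plasmid and sorted 24 h later. The con cells received pmax-Clover, a plasmid for the green fluorescent protein Clover alone, the ICN cells pmax-Clover-ICN, which carries the intracellular part of NOTCH1, and the CTdel cells pmax-Clover-CTdel, the mutated form of that part. The con cells had therefore also been through nucleofection, plasmid expression and sorting, and cells without plasmid were not analysed here. Nothing in the labels says that con replicates 1 and 2 came from separate cultures, so the spread between them may be technical.

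Interleukin-3 binds a receptor made of an alpha chain, Il3ra, and a beta chain, Csf2rb or its mouse-specific copy Csf2rb2. The bound receptor activates the kinase Jak2 and the transcription factor pair Stat5a and Stat5b, which raise survival and growth genes such as Bcl2l1, Pim1 and Cish. A pro-B cell is the early B-lineage stage that is defined by the transcription factors Ebf1 and Pax5, the surrogate light chain genes Vpreb1 and Igll1, and the recombinases Rag1 and Rag2.

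Expression was read as the deposited FPKM, fragments scaled by transcript length and by library size, which allow levels to be compared between genes. Pairs of values below are FPKM in con replicates 1 and 2, in that order. A gene was called expressed at FPKM of at least 1 in both con libraries, and off when under 0.1 in both. FPKM summed to 495491 and 500259, and 14951 and 14981 genes were above 0. Read totals are unknown. Judged from what 1 read is worth in FPKM for small RNAs, replicate 2 was about 1.08 times as deep as replicate 1. That estimate takes the lowest FPKM above 0 as 1 read. It is a median over 33 transcript lengths, of which 16 lay within 2% of it. The deposited values of each replicate number came in a table of its own, and 16799 genes were in both tables. In bulk RNA, fewer cells of a type and less RNA per cell cannot be told apart.

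Expressed genes numbered 10178, which is 60.6% of the genes in both tables, and 3555 genes (21.2%) were off. Each count of expressed list members below is to be read beside that 60.6%. The median expressed gene had a mean FPKM of 15.9. FPKM reached 10 in both libraries for 6128 genes and 100 for 620 genes. The 100 most abundant genes held 34.1% and 31.7% of all FPKM.

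The most abundant messages were those of the protein synthesis machinery. Eef1a1, which brings aminoacyl-tRNA to the ribosome, was the highest gene at 7715 and 6409. Cytosolic ribosomal protein genes filled 18 of the 25 highest places and 69 of the 100 highest, and their 88 genes held 25.4% and 22.2% of all FPKM. The highest of them were Rplp1 at 3576 and 4236, Rpl41 at 3602 and 3175, Rplp0 at 3206 and 3272, and Rps2 at 2869 and 3561. Eef2, the translocation factor, stood at 2203 and 1735.

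The other 5 of the 25 highest genes were not part of the translation machinery. Both chains of ferritin, the iron store, were among them, and both were higher in replicate 2. The light chain gene Ftl1 stood at 1990.4 and 4161, and the heavy chain gene Fth1 at 1894 and 2886. Gapdh, a glycolytic enzyme, was even between the libraries at 2674 and 2632. Ppia, the prolyl isomerase cyclophilin A, stood at 1905 and 2349, and Ptma, prothymosin alpha, at 1677 and 2173. Translation factors as a class held 4.05% and 3.78% of all FPKM, glycolytic enzymes 1.54% and 1.58%, chaperones 1.34% and 1.73%, and actin cytoskeleton genes 1.85% and 2.23%.

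The cells had the general leukocyte programme. Of 15 pan-leukocyte genes 13 were expressed, with a median mean FPKM of 69.3 over the 15. The highest were Arhgdib, a GTPase regulator of blood cells, at 640.5 and 385, Cd53, a tetraspanin, at 313 and 111, Coro1a, a leukocyte actin regulator, at 248 and 299, and Lcp1, an actin bundler, at 306 and 216. Ptprc, the common leukocyte antigen CD45, stood at 77.6 and 32.7. Of 9 stromal, endothelial and epithelial genes 1 was expressed, Pecam1, at 62.8 and 51.6, an adhesion protein that blood cells also carry.

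The pro-B label was not matched by the transcripts that define the stage. Of 25 B-lineage genes 19 were in both tables, 3 were expressed and 10 were off, a share expressed of 15.8% beside 60.6% over all genes. Igll1 was at 0 in both libraries. Ebf1 stood at 0.01 and 0.01, Rag1 at 0 and 0.01, and Rag2 at 0.02 and 0.01. Blnk and Blk, which carry the signal of the B-cell receptor, were at 0 in replicate 1 and at 0.07 and 0.02 in replicate 2. Vpreb1 was low but above the limit for off, at 0.14 and 0.26. Pax5 was listed in the table of replicate 2 alone, at 0.04.

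The expressed B-lineage genes were not stage-defining. Bank1, a scaffold of B-cell receptor signalling, stood at 19.7 and 11.7. Cd72, a B-cell surface lectin, stood at 5.22 and 5.41, and Cd79b, a chain of the antigen receptor, at 3.62 and 4.32. Its partner chain Cd79a, named after its values were seen, was at 0 and 0.79.

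Markers of T cells and of dendritic cells were also sparse. Of 18 T-lineage genes 2 were expressed: Lat, an adaptor of T-cell and mast-cell receptors, at 5.96 and 4.33, and Ptcra, which pairs with the early T-cell receptor beta chain, at 1.47 and 1.37. The T-cell genes Cd3e, Cd6, Cd28, Zap70 and Gata3 were at 0 in both libraries. Of 12 dendritic and MHC class II genes the invariant chain Cd74 alone was expressed, at 7.62 and 5.6. Of 6 NK and cytotoxic genes only Gzmb, the protease granzyme B, was expressed, at 34.2 and 28.9, while Prf1, the pore that delivers it, was at 0.1 and 0.1.

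Genes of the mast-cell, megakaryocyte and erythroid branches were present in part. The shares expressed were 38.5%, 45.5% and 54.5% in that order, each below the 60.6% over all genes. Of 13 mast cell and basophil genes 5 were expressed. Srgn, the proteoglycan core of secretory granules, stood at 243 and 164, and Gata2, a transcription factor of progenitors and mast cells, at 238 and 192. Cpa3, mast-cell carboxypeptidase, stood at 26.7 and 6.14. The mast-cell protease genes Mcpt1, Mcpt2, Mcpt4 and Tpsab1 were at 0 in both libraries, and the stem-cell factor receptor Kit, listed in the table of replicate 1 alone, was at 0.

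Of 11 megakaryocyte genes 5 were expressed. Itga2b, the platelet integrin CD41, stood at 148 and 109, and Nfe2, a transcription factor of platelet release, at 108 and 96.8. Itgb3, the partner of Itga2b, stood at 5.56 and 8.99. Vwf, the clotting factor, was at 0.01 and 0. Of 11 erythroid genes 6 were expressed, led by the alpha globin gene Hba-a1 at 118 and 578 and the transferrin receptor Tfrc at 90.1 and 163. Rhag, a gas channel of red cells, stood at 56.2 and 30.6. Slc4a1 and Ahsp, markers of late red-cell precursors, were at 0 in both libraries. Reads of Hba-a1 and its near-identical copy Hba-a2 may be split between them. Hba-a1 was also among the largest differences between the con libraries. The part of RNA from other cells in its level was not tested.

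Myeloid genes were mixed. Of 16 monocyte and macrophage genes 9 were expressed: Adgre1, the F4/80 antigen, stood at 60.8 and 33.2, and Tyrobp, an adaptor of activating receptors, at 52.3 and 20.6. Csf1r, the macrophage growth factor receptor, was at 0.05 and 0.01, and Mrc1, the mannose receptor, at 0.01 and 0. Of 15 neutrophil granule genes 5 were expressed, a share of 33.3% beside 60.6% over all genes. Among them were Prtn3, S100a8, S100a9 and Mmp8, whose values are given below, while Elane and Ly6g were at 0 in both libraries. Of 6 eosinophil genes 0 were expressed.

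Stem and progenitor genes were expressed at about the share of all genes. Of 15 such genes 10 were expressed, of which Cd48 and Slamf1 encode surface proteins and the other 8 transcription regulators. The surface markers Cd34, at 0 and 0, and Ly6a, at 0.4 and 0.42, were not expressed, and neither was the transcription factor Meis1, at 0.01 and 0.01. Cd48, a leukocyte surface protein, stood at 45.1 and 42.5.

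**Figure D1:**
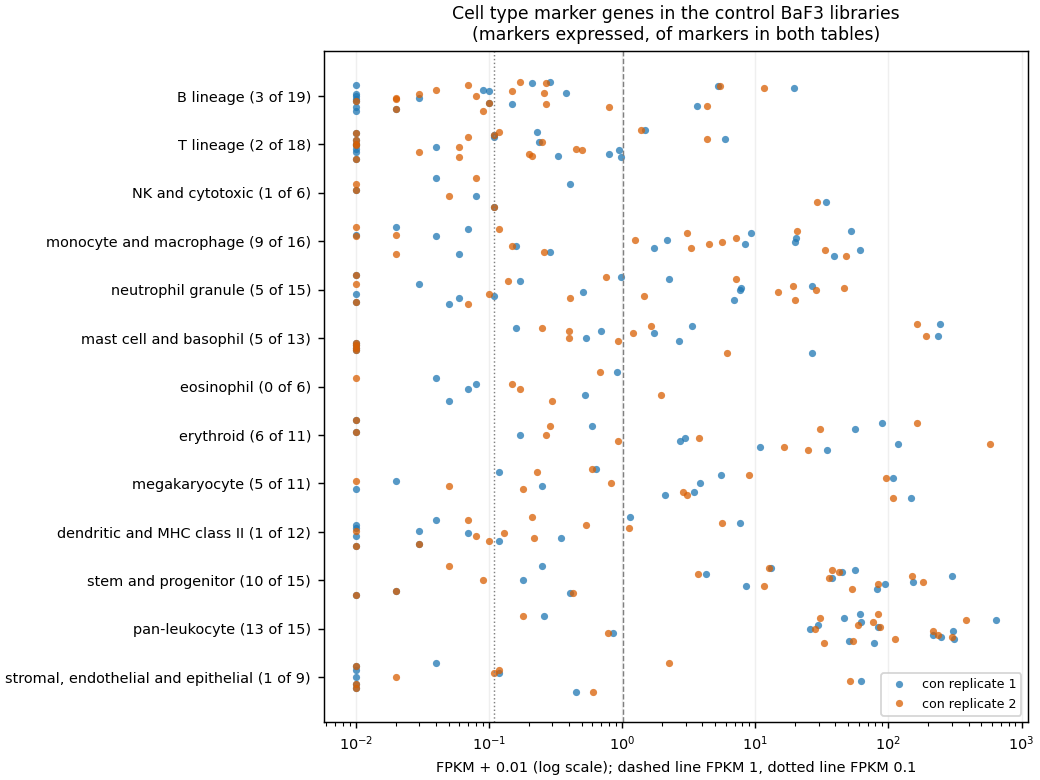
FPKM of each cell type marker in con replicate 1 (blue) and con replicate 2 (orange), on a log scale after adding 0.01; each pair of points is a gene, and the row label gives how many markers were expressed. Most B-lineage, T-lineage and stromal markers lie left of the dashed line at FPKM 1, and most pan-leukocyte markers lie right of it.

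Most of the haematopoietic transcription factors were expressed. Of 79 such factors 58 were expressed (73.4%, beside 60.6% of all genes) and 13 were off. Atf4, the factor of the amino acid response, was the highest of this list at 359 and 202, followed by Gata2, whose values are given above. Myc, the growth factor-induced regulator of proliferation, was nearly equal in both libraries at 198 and 194. Lyl1 and Tal1, related factors of blood progenitors, stood at 154 and 181 and at 94.4 and 83.9. Zfpm1, the partner of GATA factors known as FOG1, stood at 115 and 218.

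Gata1, the erythroid and megakaryocyte factor, was lower than Gata2, at 34.4 and 24.8. Gfi1b, a repressor of the same branches, stood at 38.0 and 35.8, and Mecom, which was counted in the stem and progenitor list and not among the 79 factors, at 298 and 149. Mecom, also known as Evi1, is a transcription factor of stem cells, and its mean lay above that of Gata2. Spi1, which encodes PU.1, stood at 39.1 and 47.7, beside Cebpa at 0 in the table of replicate 2, where alone it was listed. Myb, required in progenitors, stood at 81.8 and 53.1. Trp53 stood at 160.1 and 121, Id1, an inhibitor of E proteins, at 85.3 and 176, and Xbp1, a factor of secretory cells, at 150.4 and 95.6.

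Among the factors that were off were Gata3, Ebf1, Ets1, Gfi1, Meis1, Bcl11a, Klf4 and Mef2c, at 0.03 or less in both libraries. Ets1 stood at 0.03 and 0.03, while the related Fli1 and Elf1 stood at 21.6 and 22.0 and at 50.1 and 42.7. The E protein genes Tcf3 and Tcf12, whose products act in B cells and in other blood cells, were expressed at 37.6 and 55.4 and at 32.8 and 26.8. Runx1, a factor of all definitive blood cells, stood at 13.1 and 12.7. Ikzf1, the lymphoid regulator Ikaros, stood at 12.6 and 8.45. Bcl11a, Klf4, Mef2c, Fli1, Elf1, Tcf3, Tcf12 and Ikzf1 were named after their values were seen.

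**Figure D2:**
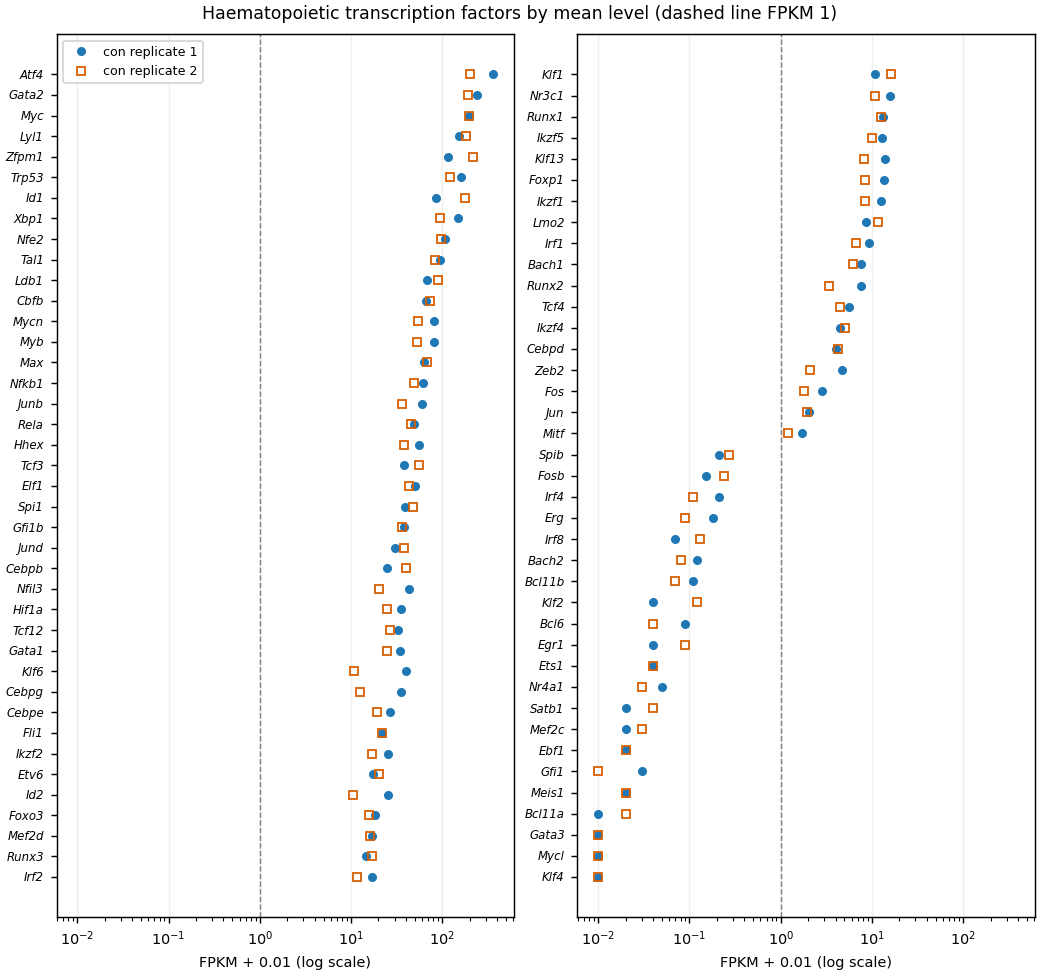
Haematopoietic transcription factors ordered by mean level from top left to bottom right, with FPKM plus 0.01 on a log scale in con replicate 1 (blue circles) and con replicate 2 (orange squares). The dashed line at FPKM 1 divides the 58 expressed factors from the rest, with a gap between them.

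The cytokine receptors were led by the beta chains of the interleukin-3 receptor. Csf2rb stood at 273 and 170.4 and Csf2rb2 at 248 and 121, although reads of these near-identical copies may be split between them. The alpha chain Il3ra was far below both, at 30.0 and 23.7. The alpha chains that pair Csf2rb with other cytokines were not expressed: Csf2ra, for GM-CSF, was at 0.03 and 0.03, and Il5ra, for interleukin-5, at 0.9 and 0.67. Of 38 cytokine receptor genes 19 were expressed, a share of 50% beside 60.6% over all genes.

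Receptors that share the common gamma chain were also present. Il2ra, the inducible alpha chain of the interleukin-2 receptor, stood at 110 and 28.8, Il2rb at 12.2 and 8.07, and the common chain Il2rg at 66.4 and 37.1. Il4ra stood at 39.0 and 28.2, whereas Il7r, which pro-B cells need, was at 0.08 and 0.03. Type I interferon receptor chains were expressed, Ifnar1 at 11.2 and 8.39 and Ifnar2 at 37.9 and 21.9. Growth factor receptors of other lineages were off or nearly so: Flt3 at 0 and 0, Csf1r as above, and Csf3r at 0.16 and 0.13. Epor, the erythropoietin receptor, was expressed at 2.97 and 3.79.

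Among other surface receptors, F2r, the thrombin receptor, was the highest of the lists at 698 and 387. Cxcr4, which holds cells in marrow, stood at 16.2 and 17.2, Ccr2 at 20.2 and 7.2, and Cxcr2 at 21.7 and 11.5. Of 22 chemokine and lipid receptors 10 were expressed, a share of 45.5% beside 60.6% over all genes. The integrin alpha 4 gene Itga4 stood at 63.1 and 42.0 and the integrin beta 1 gene Itgb1 at 57.9 and 55.1, and 18 of 24 adhesion receptors were expressed. Of 18 genes of the TNF receptor family 11 were expressed (61.1%), led by Ltbr, the lymphotoxin beta receptor, at 22.7 and 31.0. Of 9 Toll-like receptors 2 were expressed, Tlr4 at 9.6 and 2.04 and Tlr2 at 2.89 and 2.85. Of 7 Fc receptor genes 3 were expressed, led by the signalling chain Fcer1g at 77.2 and 35.2.

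All 36 genes of interleukin-3 signalling were expressed, with a median mean FPKM of 32.2. Jak2 stood at 20.3 and 15.2, Stat5a at 19.2 and 26.5, and Stat5b at 18.4 and 18.4. The Stat5 target genes Pim1, a survival kinase, and Cish, a feedback inhibitor, were higher, at 385 and 187 and at 111 and 94.9. The survival genes Bcl2, Bcl2l1 and Mcl1 stood at 46.3 and 46.9, 46.9 and 49.4, and 84.9 and 73.2. The first 2 were nearly equal between the libraries.

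**Figure D3:**
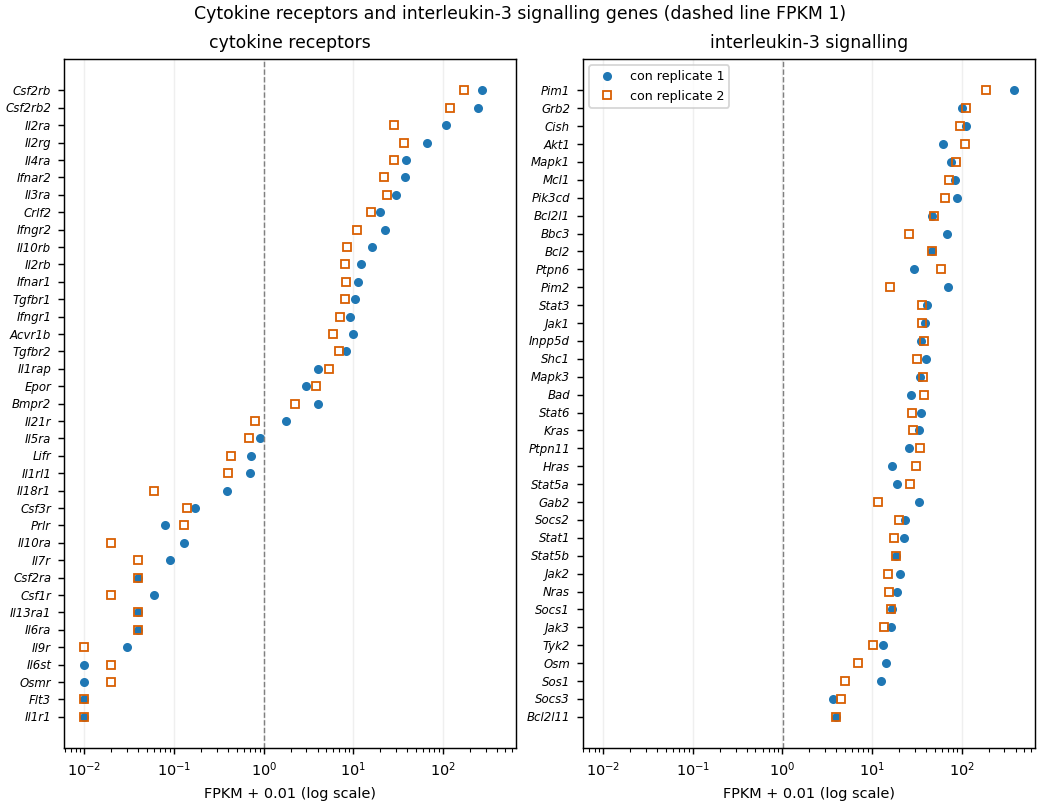
Cytokine receptors (left, all but 1 that was not expressed) and genes of interleukin-3 signalling (right) by mean level, with FPKM plus 0.01 on a log scale in con replicate 1 (blue circles) and con replicate 2 (orange squares). The 19 expressed receptors lie right of the dashed line at FPKM 1, Csf2rb highest, and all 36 signalling genes lie right of it.

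Notch1 (Gene ID 18128, chromosome 2, 26457902 to 26503822 in GRCm38), the gene whose product the other plasmids carry in part, was at 0.89 and 1.72 in con. Notch2 was the highest Notch receptor gene at 18.0 and 16.6, Notch3 stood at 0.71 and 0.36, and Notch4 was off at 0.07 and 0.07. The ligand genes Dll1 and Jag1 were at 0.03 or less, and no ligand of the list reached FPKM 1. Genes that cut the receptor were expressed, the gamma-secretase subunit Psenen at 87.6 and 74.9 and the protease Adam10 at 51.3 and 48.6. So was the DNA-binding partner Rbpj, at 85.1 and 45.8. The target genes Hes1, Dtx1 and Nrarp were off, at most at 0.05. In all 18 of 29 Notch pathway genes were expressed, a share of 62.1% that is close to the 60.6% over all genes.

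Cytokine genes were few but some were high. Mif, a constitutively made cytokine, stood at 665 and 972, and Tgfb1 at 173 and 229. The interleukin-3 gene Il3 itself was at 0 in replicate 1, in whose table alone it was listed, and Csf2, the GM-CSF gene, was at 0 in both libraries. Of 30 cytokine and chemokine genes 13 were expressed. MHC class I genes were expressed in 15 of 16 cases: the light chain B2m stood at 930.1 and 332 and the heavy chain H2-D1 at 217 and 135, with the heavy chain genes too alike for firm assignment of reads.

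The cells expressed genes of growth throughout. Of 30 cell cycle genes 29 were expressed, with a median mean FPKM of 80.1, and the exception was Ccnd1, a D-type cyclin, at 0.28 and 0.32. The other D-type cyclin genes were expressed, Ccnd2 at 109 and 93.8 and Ccnd3 at 64.1 and 108, and Pcna, the replication clamp, stood at 349 and 558. All 22 genes of cholesterol synthesis and all 20 of ribosome biogenesis were expressed, the latter led by Npm1, nucleophosmin, at 2056 and 1670 and Ncl, nucleolin, at 231 and 262. Glycolysis and hypoxia genes were expressed in 22 of 23 cases, with Aldoa at 855 and 881 and Pgk1 at 557 and 423. The constitutive chaperones Hsp90ab1 and Hspa8 stood at 1664 and 1990.4 and at 1187 and 2066, while the stress-inducible Hspa1b was at 0 in both libraries. Cdkn1a, the inhibitor p21, stood at 188 and 131, while Cdkn2a was at 0.29 and 0.16.

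The con libraries were then compared with each other. With 1 library a side there is no test. A difference was counted at 1 or more on the log2(FPKM + 1) scale, that is 2-fold for genes well above FPKM 1. The 10752 shared genes that reached FPKM 1 in either library were compared. A gene that reached it in 1 library alone entered through the library where it was higher, which favours a difference. In replicate 2, 239 genes (2.22%) were higher and 503 genes (4.68%) were lower. At a difference of 2 the counts were 19 and 69. Small RNA genes made up 45 of the higher and 40 of the lower genes. The median difference over all compared genes was −0.04.

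**Figure D4:**
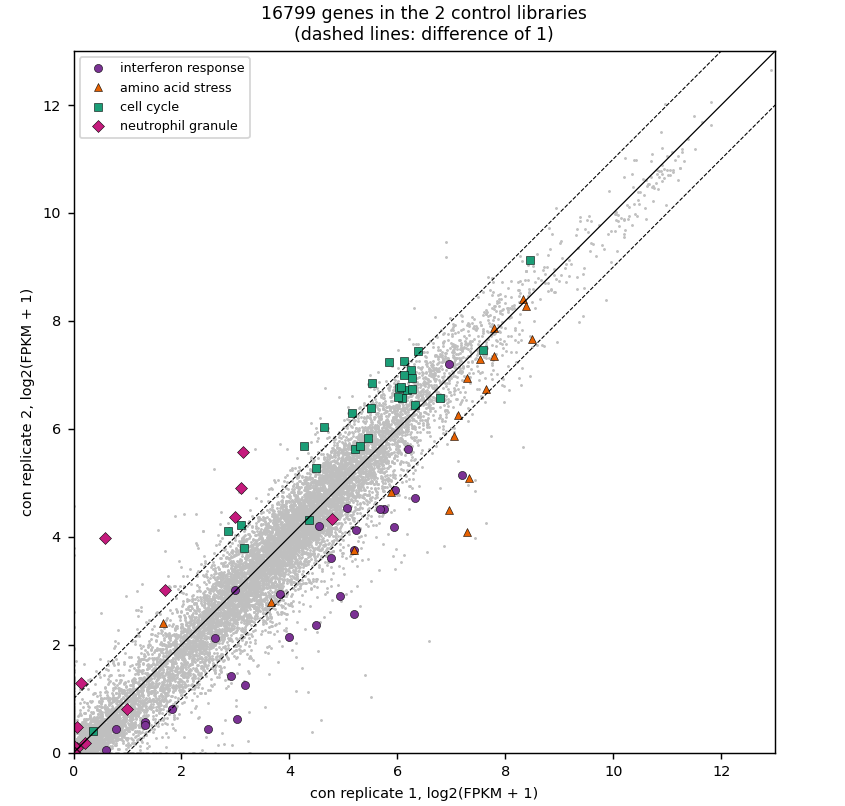
log2(FPKM + 1) in con replicate 1 (x axis) and con replicate 2 (y axis) for the 16799 genes in both tables (grey), with 4 gene lists marked; the solid line is equality and the dashed lines a difference of 1. Most interferon response genes (purple) lie below the diagonal, most cell cycle genes (green) above it, and 6 of the 7 neutrophil granule genes compared (pink) above the upper dashed line.

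Interferon response genes were lower in replicate 2. Of 27 compared, 18 were lower by at least 1 and 0 higher, beside 4.68% of all genes lower, and their median difference was −1.16. Irf7, the factor that amplifies the response, stood at 147 and 34.4, Isg15, a ubiquitin-like antiviral protein, at 60.7 and 17.2, and Ifit1, which binds foreign RNA, at 35.8 and 4.91. Oasl1 stood at 79.8 and 25.2 and Oas2, a sensor of double-stranded RNA, at 60.8 and 28.1. Bst2, the virus tether tetherin, went the other way at 123 and 147. MHC class I genes, which interferon also raises, had a median difference of −0.67, and 3 of 15 were lower by at least 1.

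Promoters of the list are shown because most members were lower in the same library and interferon-activated factors are known to bind many of them at a shared motif. The motif, GAAA followed by any 2 bases and GAAA again, was chosen after the values were seen and searched on both strands. It occurred within 250 bases before the start in 978 of 32851 RefSeq promoters (2.98%; GRCm38.p6) and in 12 of the 25 promoters found for 21 of the 29 list genes. The motif occurred in 12 of those 21 genes, of which 8 were lower by at least 1 in replicate 2, with a median difference of −1.13. Of the 9 genes without it 5 were lower, with a median of −1.16. Windows of 120 bases are given for 3 genes that were lower (Ifit1, Isg15 and Oas3) and for Bst2, which was not. Each reads 5′ to 3′ on the strand of the gene, with capitals for the motif, which appears as TTTC, 2 bases and TTTC where it lies on the other strand, and overlapping matches share bases.
Ifit1, + strand, chr19:34640769-34640888, from base −120 to −1 before the start: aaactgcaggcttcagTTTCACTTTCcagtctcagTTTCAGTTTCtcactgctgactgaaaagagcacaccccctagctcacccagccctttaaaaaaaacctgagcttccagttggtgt
Isg15, − strand, chr4:156200819-156200938, from base −120 to −1: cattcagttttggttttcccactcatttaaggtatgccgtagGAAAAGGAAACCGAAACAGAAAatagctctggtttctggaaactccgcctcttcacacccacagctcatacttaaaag
Oas3, − strand, chr5:120777660-120777779, from base −120 to −1: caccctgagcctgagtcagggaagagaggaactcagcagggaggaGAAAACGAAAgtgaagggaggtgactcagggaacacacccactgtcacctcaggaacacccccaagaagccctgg
Bst2, − strand, chr8:71537503-71537622, from base −150 to −31: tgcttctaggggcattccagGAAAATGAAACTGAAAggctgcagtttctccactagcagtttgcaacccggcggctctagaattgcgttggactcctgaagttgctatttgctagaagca
The Isg15 window holds 3 overlapping matches, those of Ifit1 and Bst2 hold 2 each, and that of Oas3 holds 1.

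Genes of the amino acid stress response, which Atf4 drives, were also lower in replicate 2. Of 17 compared, 6 were lower by at least 1 and 0 higher, beside 4.68% of all genes lower, with a median of −0.86. Trib3, a pseudokinase that restrains the response, stood at 155 and 16.0, Ddit3, the factor CHOP, at 124 and 21.5, and Atf5 at 159.5 and 33.3. Asns, asparagine synthetase, stood at 199 and 106. The serine synthesis genes Psat1, at 318 and 339, and Phgdh, at 333 and 311, were close to equal.

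Other lists with several lower members in replicate 2 were those of NF-kB, p53, hypoxia, cytokines, interleukin-3 signalling, monocytes and macrophages, and Fc receptors. Their counts stand beside 4.68% of all genes lower by at least 1. Of 14 NF-kB target genes 6 were lower, with a median of −0.90. Nfkbia, the inhibitor that NF-kB induces, stood at 35.9 and 11.0. Of 16 cytokine genes 8 were lower, and Ccl5, a chemokine, was among the largest differences at 198 and 18.1. Of 13 p53 response genes 4 were lower, among them Bbc3, the death gene PUMA, at 69.4 and 25.7. Of 22 glycolysis and hypoxia genes 6 were lower, led by Bnip3, a mitophagy receptor, at 92.5 and 12.2 while the glycolytic genes Gapdh, Aldoa and Pgk1 differed by less than 1. Of 36 interleukin-3 signalling genes 5 were lower by at least 1, among them Pim1 and the related Pim2, at 71.3 and 15.7. Of 9 monocyte and macrophage genes 4 were lower, with a median of −0.85 in the con pair, −0.54 in the ICN pair and −0.67 in the CTdel pair. They included Fcgr1, a high-affinity antibody receptor, at 19.96 and 5.61, and Tyrobp. The whole list summed to 215 and 127 in con, and its part in the other differences was not tested. Of 4 Fc receptor genes 3 were lower, with a median of −1.06: Fcgr1, Fcer1g and Fcgr3.

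Cell cycle genes tended to be higher in replicate 2. Of 29 compared, 9 were higher by at least 1 and 0 lower, beside 2.22% of all genes higher, and the median difference was 0.71. The helicase subunit genes Mcm5, at 56.1 and 150.1, Mcm7, at 68.7 and 152, and Mcm6, at 82.5 and 174, were among them, as was Ccne1, the G1/S cyclin, at 18.4 and 50.6. The proliferation marker Mki67 was nearly equal at 79.2 and 86.5, and Top2a, a topoisomerase, at 190.2 and 176. Cholesterol synthesis genes had a median difference of 0.43, ribosome biogenesis genes of 0.32 and heat shock genes of 0.34, with 0, 2 and 1 members past 1. Of 58 haematopoietic transcription factors compared, 1 was higher, Id1, and 4 were lower, beside 2.22% and 4.68% of all genes. The lower ones were Klf6 at 39.5 and 10.9, Cebpg at 35.6 and 12.4, Id2 at 25.2 and 10.6, and Nfil3 at 42.8 and 20.3. These 4 were named after their values were seen.

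The 12 genes with the largest differences in each direction, among those at FPKM 5 or more in the higher library and with small RNA genes left out, were of several kinds. Lower in replicate 2 were Nupr1, a stress-induced chromatin protein, at 95.1 and 3.22, Avil, an actin severing protein, at 44.8 and 1.05, Aqp9, a glycerol channel, at 172 and 14.7, and Gpr34, a lysophospholipid receptor, at 23.1 and 0.52. Also in that set were Cox6a2, Csprs, Extl1, Angptl6, 1700010I02Rik, Bcl2a1b, Ccl5 and Trib3. Bcl2a1b, a survival gene of the NF-kB programme, stood at 115 and 13.3, and reads may be shared with its near-identical copies. Higher in replicate 2 were Fgf23, a phosphate hormone, at 5.07 and 37.2, Gclm, an enzyme of glutathione synthesis, at 77.8 and 301, and Serpinb1a, a protease inhibitor, at 1.95 and 16.4. The histone gene Hist1h2ap stood at 118 and 708. The rest of that set were Ngp, S100a9, Hba-a1, Mt3, Mc5r, Stfa2l1, Rpl37rt and Rps27rt, the last 2 being retrogene copies of ribosomal protein genes whose reads cannot be assigned firmly.

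Most neutrophil granule genes compared were higher in con replicate 2. Of 7 neutrophil granule genes compared, 6 were higher by at least 1, beside 2.22% of all genes. They were Ngp at 0.5 and 14.8, S100a9 at 7.84 and 46.4 and S100a8 at 7.64 and 28.8. The others were Prtn3 at 6.95 and 19.7, Mmp8 at 2.25 and 7.11, and Ltf at 0.1 and 1.45. Ngp and Ltf reached FPKM 1 in replicate 2 alone and so entered only through the library where they were higher. The list summed to 53.2 and 139 in the con pair, 67.0 and 64.1 in the ICN pair and 53.8 and 84.8 in the CTdel pair, with Elane and Ly6g at 0 in both con libraries and Mpo at 0.04 and 0.06. The erythroid list did not move as a whole: 1 of 7 genes compared, Hba-a1, was higher by at least 1 and 0 were lower, with 4 differences above 0, 3 below and a median of 0.27. Hba-a2, the copy that may share reads with Hba-a1, stood at 2.71 and 0.93, and the beta globin gene Hbb-b1, named after its values were seen, at 13.2 and 51.6. Of the 9 stromal, endothelial and epithelial genes, Alb, the liver-made serum albumin, stood at 0.03 and 2.26 in the con pair, 0.11 and 3.61 in the ICN pair and 0.03 and 2.41 in the CTdel pair. The part of RNA from other cells in the differences between the con libraries was not tested.

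The replicate 1 and 2 libraries of the other groups were compared in the same way, and these pairs share no library with the con pair. Gene counts used the genes at FPKM 1 in either library of each pair. List medians and list counts used the members that passed this filter in con. The ICN pair had 564 genes higher (4.98%) and 331 lower (2.92%) in replicate 2, of 11321, and the CTdel pair had 103 higher (0.946%) and 248 lower (2.28%), of 10887. The interferon list had a median difference of −1.16 in the con pair, 1.64 in the ICN pair and 0.28 in the CTdel pair, with 21 of its genes higher by at least 1 in ICN replicate 2. The amino acid stress list had −0.86, 0.97 and −0.0038 in the same order, and the cell cycle list 0.71, −0.47 and 0.44. These 3 lists had medians of opposite sign in con and ICN, and the difference between the pairs was not tested. Medians of cytokine genes were −0.98, −0.46 and −1.07 and those of neutrophil granule genes 1.38, 0.42 and 0.78, in the same direction in all 3 pairs. In the ICN pair, however, 1 neutrophil granule gene was higher by at least 1 and 1 was lower. The list summed to 67.0 and 64.1 in that pair.

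Of the 239 genes higher in con replicate 2, 38.9% were also higher in ICN replicate 2 and 74.1% in CTdel replicate 2, and 13 (5.44%) passed 1 in both. Of the 503 lower genes, 45.5% were also lower in ICN replicate 2 and 71% in CTdel replicate 2, and 30 (5.96%) passed 1 in both. Over all genes compared in con, 47.2% were above 0 in the ICN pair and 53.8% in the CTdel pair. The shares of all genes below 0, and past 1 in both other pairs, were not computed. The lower genes and the counts of 13 and 30 therefore have no such share beside them. The SD of the difference over genes was 0.573 for con, 0.552 for ICN and 0.392 for CTdel.

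**Figure D5:**
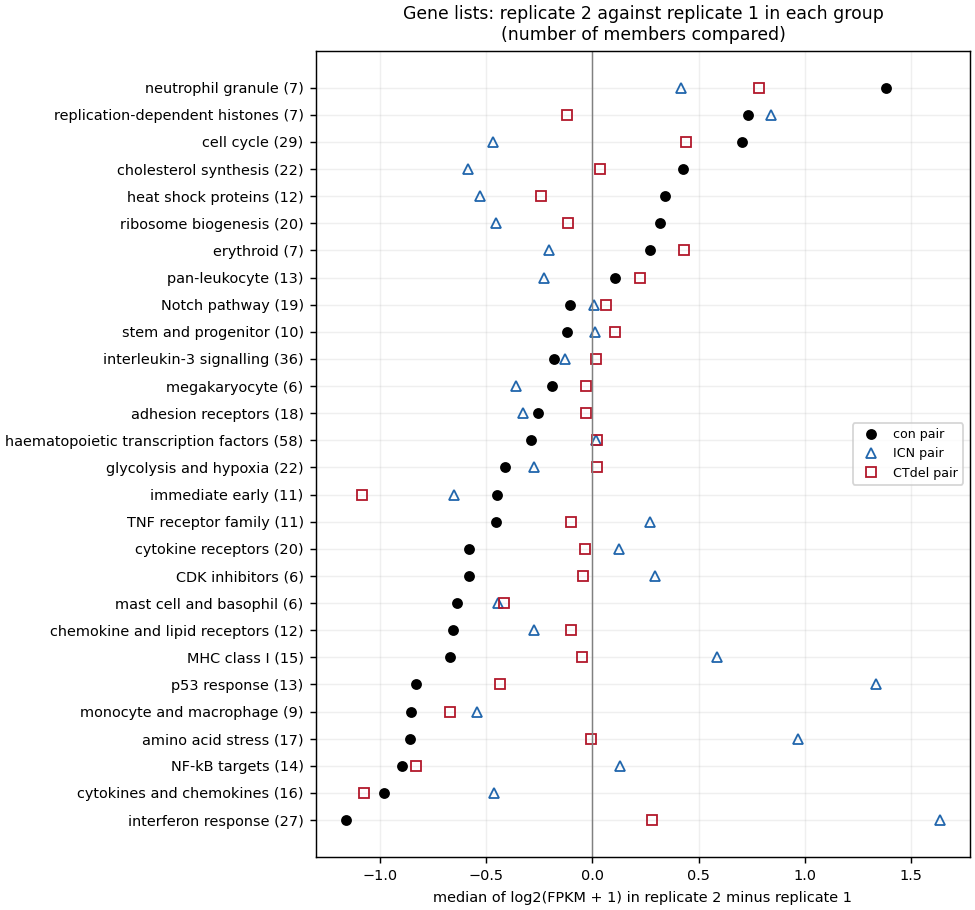
Median of log2(FPKM + 1) in replicate 2 minus replicate 1 for each gene list with at least 5 members compared, in the con pair (black circles), the ICN pair (blue triangles) and the CTdel pair (red squares). The interferon response list lies at −1.16 in con and 1.64 in ICN, while the neutrophil granule list lies right of 0 in all 3 pairs.

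The replicate term over the 3 pairs was tested with limma on all 6 libraries and 11050 genes. It called 1 gene higher in replicate 2 (0.00905%) and 4 lower (0.0362%), all at an adjusted p of 0.049998, just inside the threshold of 0.05. Hist1h2ap was higher by 2.35 ± 0.17 on the log2 scale (SE), at 118 and 708 in the con pair, 160.2 and 787 in the ICN pair and 176 and 800.0 in the CTdel pair. Lower were the pseudogenes Gm5177 and Gm6654, the interferon-induced transmembrane gene Ifitm6, at 5.69 and 0.29 in con, and Tarm1, a receptor of myeloid cells, at 30.1 and 6.06. In each of the 5 genes all 3 pairs had the same direction, and the libraries of replicate 1 and of replicate 2 did not overlap. The 5 genes were chosen by this test on these same libraries, so this agreement adds no support of its own. The interferon gene Ifit1 was not called (log2 difference −0.61 ± 0.65, SE; adjusted p = 0.822), and neither was Alb (1.81 ± 0.21, SE; adjusted p = 0.157).

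The calls of this test moved with the setting. A pseudocount of 0.1, no filter or quantile normalization left 0 calls in either direction. Without ICN replicate 1 or ICN replicate 2 it gave 68 and 70 genes higher and 149 and 148 lower, without either con library 1 and 19, and without either CTdel library 5 and 10.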

How the data were processed

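Libraries of polyadenylated RNA from 6 BaF3 samples were prepared with an MGIEasy kit, according to the labels. HISAT2, Bowtie2, RSEM, hg19 and mm10 appear without versions or roles in the submitters' processing notes. The authors deposited FPKM per gene, 1 table per replicate number, with NCBI Gene IDs, per the file headers. Of 18946 IDs, 18898 were found in RefSeq for GRCm38.p6, and 26 symbols turned into dates were restored by ID. FPKM carry no read totals, so counting error is unknown and no interval could be given.

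Levels were summarised with pandas 2.3.3 over genes in both tables, and differences were taken as log2(FPKM + 1), which understates those of low genes. The replicate term was tested with limma 3.58.1 in R 4.3.3 (groups and replicate number as terms, intensity trend, 2-sided, Benjamini-Hochberg adjustment, genes at FPKM 1 or more in 2 or more libraries), and the code was tested on simulated data. Alternatives covered the expression minimum, the scaling, the pseudocount, the filter, genes of 1 table and each library left out. Named genes were Notch1, the 25 most abundant, up to 8 expressed and 6 off members of each list, the 12 largest differences a direction and up to 5 genes a direction with the smallest p of the replicate term. Other genes, such as list members in between, were named after their values were seen. The group, the lists and the rules were chosen with earlier results of these data known. A few list members are counted but not reported here by name.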

Additional observations from a re-analysis of the deposited data

How the results depend on the processing

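The number of expressed genes stayed between 8074 and 10782 under a minimum of 0.5 or 5, a rescaled sum, absent genes set to 0 or either con library alone, and that of list members between 345 and 434. Of 222 counts for a single list under these settings, 207 stayed within 1.5 times. All 24 named differences kept their direction and stayed past 1 with a pseudocount of 0.1 and with quantile normalization. They were chosen as the largest differences, and a smaller pseudocount can only enlarge a difference. Of these 2 settings, quantile normalization alone could have changed that outcome. Between the con libraries, a pseudocount of 0.1 gave 843 lower genes, and a difference of 2 gave 19 higher and 69 lower. For limma's replicate term, a pseudocount of 0.1, no filter and quantile normalization each gave 0 higher and 0 lower genes, with 863, 1172 and 920 genes at an unadjusted p under 0.05 beside 862 as reported, and ICN and CTdel alone gave 19 lower, holding all 5 genes of the full fit within 20 calls. Leaving out 1 library gave 1 to 70 higher and 10 to 149 lower, the most without an ICN library. A lone library of a group is matched by its own term and adds nothing. The cause was not tested. No paired analysis was possible because the levels come from 1 group, and in the limma fit the replicate number is itself the term tested.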

Other observations

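Genes outside the lists and among the more abundant ones were named after their values were seen. Rhox5, a homeobox gene best known from the testis and silent in most adult tissues, had an FPKM of 421 in con replicate 1 and of 509 in con replicate 2. The ICN pair stood at 495 and 404 and the CTdel pair at 531 and 497, so all 6 libraries expressed it. Igfbp4, which binds insulin-like growth factors, stood at 426 and 469 in con. The interferon-induced transmembrane genes were among the highest surface proteins, Ifitm1 at 2008 and 1129 and Ifitm3 at 1308 and 872 in con. Ly6e, a further interferon-induced surface protein, stood at 788 and 691. The metallothionein genes Mt1 and Mt2, which bind zinc and copper, stood at 912 and 644 and at 695 and 273 in con. They were higher in replicate 1 in all 3 groups, at 1332 and 734 for Mt1 in ICN and 1344 and 681 in CTdel. Neat1, a nuclear long noncoding RNA, showed the same order, at 321 and 49.4 in the con pair, 130.4 and 40.2 in the ICN pair and 147 and 41.5 in the CTdel pair. The limma replicate term did not call Mt1, Mt2 or Neat1 (adjusted p = 0.406, 0.157 and 0.157).

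By the annotation terms in the deposited tables, 62.5% of 526 genes with transcription factor activity and 72.4% of 510 with kinase activity were expressed in con, beside 60.6% of all genes. For receptor activity it was 26.3% of 495 genes, and for channel activity 25.9% of 201.

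The sex chromosome genes in both tables were off in con: Xist, the X-inactivation RNA, stood at 0.07 and 0.04 and the Y-linked Ddx3y at 0.01 and 0.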
